A study of Mus musculus with 6 samples.

Results

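The 74 genes described here carry the symbols of mitochondrial ribosomal proteins. They were chosen by name, as every gene whose symbol is Mrpl or Mrps followed by a number and at most 1 letter, out of 21572 symbols listed in each of 6 tables of mouse soleus RNA. By symbol, 46 belong to the large subunit and 28 to the small subunit. All 74 passed the filter on low values, a mean FPKM of at least 0.5 (fragments scaled by transcript length and by library), which left 12247 genes for testing.

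Polyadenylated RNA was sequenced from adult C57BL/6 mice, from the soleus, whose fibres are mostly slow and rich in mitochondria. There were 3 groups of 2 libraries: innervated muscle of wild-type (WT) mice, WT muscle 3 days after denervation (loss of its nerve supply), and muscle of Dach2-/-/Hdac9-/- mice, also 3 days after denervation. The last group is called DKO-labelled here. The labels give no innervated muscle of that genotype, no sex, no denervation method and no description of the deleted alleles, and they do not say whether the 2 libraries of a group came from separate animals, so that p-values reflect the spread among the libraries alone, and this spread may be technical. The design asked which genes Dach2 and Hdac9 regulate in denervated muscle. Both proteins act in the nucleus, Dach2 as a co-factor of transcription and Hdac9 as a class II histone deacetylase.

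Mitochondria carry their own ribosomes, which translate the few messages of mitochondrial DNA, all of them for subunits of the respiratory chain and ATP synthase. The ribosomal RNAs come from mitochondrial DNA, whereas every protein of these ribosomes is encoded in the nucleus, made in the cytosol and imported. Some of the proteins have counterparts in bacterial ribosomes and others are found only in mitochondria. The small subunit reads the message, and the large subunit joins the amino acids and holds the exit tunnel from which new proteins enter the inner membrane.

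Totals ran from 25529434 to 46305449 fragments per library. Myog, a muscle regulatory factor that is known to rise after denervation, had 8.02 and 7.32 FPKM in the innervated libraries, 124 and 418 in the denervated WT libraries, and 212 and 328 in the DKO-labelled libraries, so denervated WT replicate 1 was the lowest of the denervated libraries. Dach2 had 3.85 and 4.29 FPKM in innervated muscle, 0.519 and 0.536 after denervation of WT and 0.961 and 0.681 in the DKO-labelled libraries, and was thus not lower in those labelled as lacking it. Hdac9 had 4.10 and 3.14, 1.83 and 0.285, and 0.534 and 0.181 FPKM in the same order. A value over the whole gene does not check a deletion of part of it, and neither gene passed the test between the denervated genotypes (edgeR adjusted p = 0.727 and 0.919). Of the muscle markers Ckm was abundant in every library, at 3302 to 8812 FPKM, whereas Acta1, the main actin of skeletal muscle, was listed at 0 in all 6 libraries.

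The members' levels spanned a wide range. In innervated WT replicate 1 the lowest member, Mrpl19, had 4.37 FPKM and the highest, Mrps21, had 237, with a median of 41.3 over all 74 against 6.57 over all genes tested. Large and small subunit genes lay at similar levels, with medians of 42.8 and 38.8 FPKM in that library. By mean FPKM over the 6 libraries, the large subunit was led by Mrpl33 (263), Mrpl52 (156) and Mrpl14 (149), and the small subunit by Mrps21 (202), Mrps18a (90.8) and Mrps18c (87.8). Mrpl33 and Mrps21 are counterparts of short bacterial ribosomal proteins. The lowest in the large subunit were Mrpl19 (4.25), Mrpl35 (11.7) and Mrpl17 (11.9), and in the small subunit Mrps25 (5.80), Mrps2 (12.2) and Mrps11 (16.1). Mrpl19 and Mrps25 overlap another gene's entry in the tables, so their values are uncertain.

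Denervation of WT muscle was first compared with the innervated state. Of the 74 members, 2 rose and 12 fell (edgeR's quasi-likelihood test, Benjamini-Hochberg adjusted p under 0.05 over all 12247 genes), which is 18.9% of the members beside 28.7% of all genes tested. Over all genes, 14.4% rose and 14.3% fell. The members called lower were led by Mrpl18, Mrps36, Mrpl14 and Mrpl34, each down by more than 2-fold, and both members called higher, Mrpl17 and Mrpl52, were in the large subunit. A further 9 members had an unadjusted p under 0.05, which made 23 of 74, beside 43.9% of all genes tested. The median log2 change was −0.15 over the members and 0.0022 over all genes tested.

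**Figure D1:**
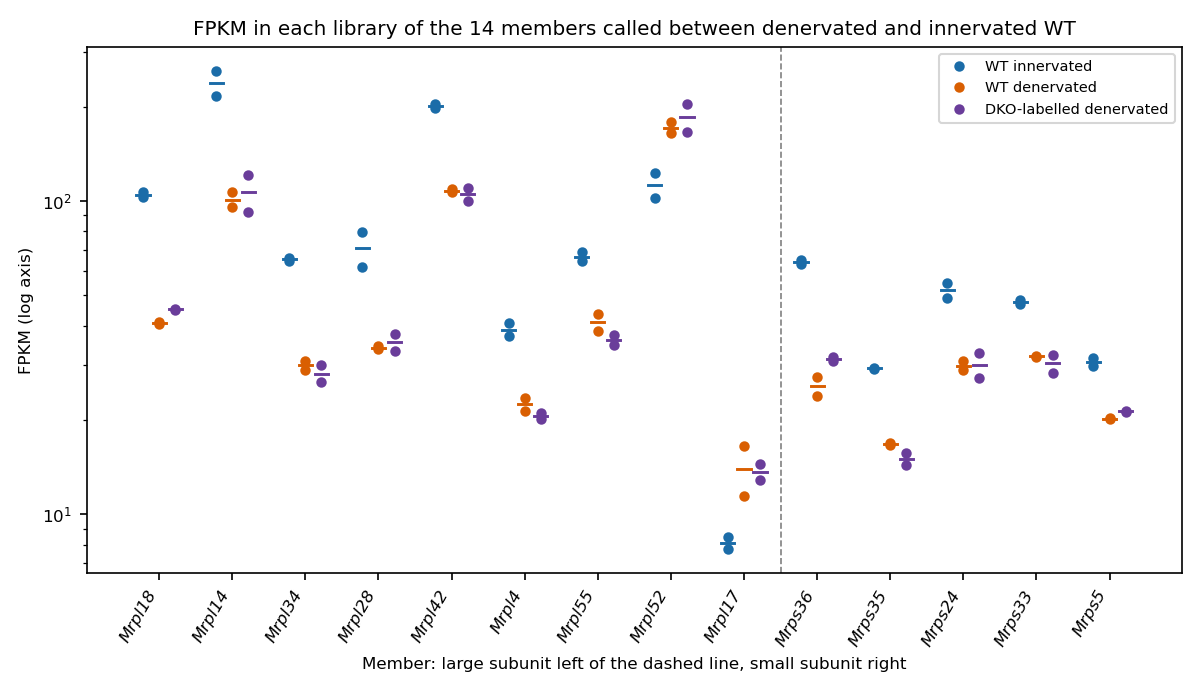
FPKM (log axis) of the 14 members called between denervated and innervated WT, with 1 point per library, a bar at the mean of each group of 2, and large and small subunit genes on either side of the dashed line. For Mrpl18 the innervated libraries sit at 103 and 107 and all 4 denervated libraries between 40.5 and 45.2, and for each gene the innervated points lie outside the range of the denervated points.

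Mrpl18, whose protein sits in the central protuberance of the large subunit, had the lowest adjusted p of all members. Its FPKM was 103 and 107 in the innervated libraries, 41.2 and 40.5 in the denervated WT libraries and 44.9 and 45.2 in the DKO-labelled libraries. The innervated libraries were therefore high, and the 4 denervated libraries lay close together well below them. The fall in WT was 2.51-fold (log2 change −1.33 ± 0.13, SE, edgeR adjusted p = 0.00305, n = 2 libraries a group). The gene lies at chr17:13104220-13108957 in the tables (mm9). It was called under all 17 alternative settings, with adjusted p up to 0.0491.

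Mrpl14, whose protein lies on the face that meets the small subunit, had 216 and 260 FPKM in innervated muscle, 95.5 and 107 in denervated WT and 92.0 and 121 in the DKO-labelled libraries. It fell 2.22-fold (log2 −1.15 ± 0.20, SE, edgeR adjusted p = 0.00988). Mrpl34, the counterpart of a short basic protein of bacteria, had 64.5 and 66.0, 31.0 and 28.9, and 29.9 and 26.4 FPKM in the 3 groups, and fell 2.07-fold (log2 −1.05 ± 0.16, SE, edgeR adjusted p = 0.00756). In neither gene did an innervated library overlap a denervated one.

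Mrpl28, also shared with bacteria, fell 1.95-fold, from 61.6 and 79.8 FPKM to 34.4 and 33.6 (edgeR adjusted p = 0.0121). Mrpl42, found only in mitochondria, was among the most abundant members and fell 1.76-fold, from 198 and 204 FPKM to 107 and 109 (edgeR adjusted p = 0.00963). The other called members of the large subunit were Mrpl4, whose bacterial counterpart lines the exit tunnel, and Mrpl55, both named after their values were seen. Mrpl4 fell from 37.0 and 40.7 to 23.5 and 21.3 FPKM (log2 −0.71), and Mrpl55 from 64.3 and 68.6 to 38.4 and 43.6 FPKM (log2 −0.61).

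Of the 2 genes called higher, Mrpl17 had the larger change. Mrpl17, the counterpart of a bacterial protein near the tunnel's exit, had 7.74 and 8.46 FPKM in innervated muscle, 11.4 and 16.5 in denervated WT and 12.9 and 14.4 in the DKO-labelled libraries, and rose 1.75-fold in WT (log2 0.80 ± 0.21, SE, edgeR adjusted p = 0.0320). Mrpl52, found only in mitochondria, had 102 and 123, 165 and 179, and 166 and 204 FPKM, and rose 1.60-fold (log2 0.68 ± 0.18, SE, edgeR adjusted p = 0.0344). Mrpl40, also only in mitochondria, missed the threshold in WT, with 19.9 and 20.0 FPKM in innervated and 30.0 and 25.0 in denervated muscle (log2 0.54, edgeR adjusted p = 0.0584). Mrpl17 is thus among the least abundant members of its subunit and Mrpl52 among the most abundant.

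In the small subunit 5 members fell and 0 rose, which is 17.9% beside 28.7% of all genes tested. A single one of them changed by more than 2-fold: Mrps36 had 64.9 and 62.8 FPKM in innervated muscle, 27.4 and 23.8 in denervated WT and 31.7 and 30.8 in the DKO-labelled libraries, and fell 2.41-fold (log2 −1.27 ± 0.16, SE, edgeR adjusted p = 0.00488). Mrps36 carries a ribosomal symbol, but later work placed its protein in the 2-oxoglutarate dehydrogenase complex of the citric acid cycle. It has annotated processed copies at other loci, and its value is uncertain if fragments were split among them. The gene lies at chr13:101505894-101514614 in the tables (mm9).

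The other 4 had smaller falls with tight libraries. Mrps35, found only in mitochondria, had 29.1 and 29.4 FPKM in innervated and 16.9 and 16.6 in denervated WT (log2 −0.76, edgeR adjusted p = 0.0167). Mrps24, the counterpart of a bacterial protein at the entry of the message channel, had 48.9 and 54.8, then 28.9 and 30.8 (log2 −0.73, edgeR adjusted p = 0.0224). Mrps33 had 47.0 and 48.2, then 32.1 and 31.7 (log2 −0.54, edgeR adjusted p = 0.0381), and Mrps5 had 29.6 and 31.5, then 20.3 and 20.1 (log2 −0.53, edgeR adjusted p = 0.0321). In each of these 4 genes the innervated and denervated libraries were apart by several times the gap within a pair.

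Members with positive changes in the small subunit missed the threshold. Mrps27, an RNA-binding protein that overlaps another entry in the tables, had 18.6 and 19.6 FPKM in innervated and 23.6 and 35.3 in denervated WT (log2 0.70, edgeR adjusted p = 0.0556). Mrps22 (log2 0.50) and Mrps30 (log2 0.39) had adjusted p of 0.120 and 0.0972 by edgeR. Mrps11, near the decoding platform, had a log2 change of −0.73 with an adjusted p of 0.0623 by edgeR, and Mrps21, the most abundant gene of the small subunit by mean FPKM, had −0.49 with 0.0565.

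Mrps18a, Mrps18b and Mrps18c are related copies of 1 bacterial small subunit gene, of which the product of Mrps18a sits in the large subunit. Their log2 changes with denervation were of both signs, and none was called. Mrps18b had 39.8 and 42.4 FPKM in innervated muscle and 42.4 and 94.5 in denervated WT, so that nearly all of the difference was in denervated replicate 2, and 63.0 and 72.6 in the DKO-labelled libraries. Its log2 change of 0.82 was the highest of all 74 members but had an SE of 0.35 and an edgeR adjusted p of 0.124, and it was called when denervated WT replicate 1 was left out (adjusted p = 0.0027, the lowest of 17 alternatives that reached up to 0.617). Mrps18c had 69.4 and 76.9, then 88.6 and 95.6 FPKM (log2 0.36, edgeR adjusted p = 0.137). Mrps18a had 93.1 and 107, then 68.9 and 90.3 FPKM (log2 −0.26, edgeR adjusted p = 0.591).

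The values of 3 further genes in WT follow by their place in the ribosome. Mrpl12, the stalk protein that binds translation factors, had 132 and 155 FPKM in innervated and 80.4 and 123 in denervated WT (log2 −0.39, edgeR adjusted p = 0.234). Mrpl11, at the base of that stalk, had 14.4 and 18.0, then 14.6 and 16.6 (log2 0.0091, edgeR adjusted p = 0.975). Mrps12, at the decoding centre, had 45.8 and 63.8, then 49.3 and 59.8 (log2 0.077, edgeR adjusted p = 0.805). The libraries of the 2 groups overlapped for Mrpl11 and Mrps12 and did not for Mrpl12.

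**Figure D2:**
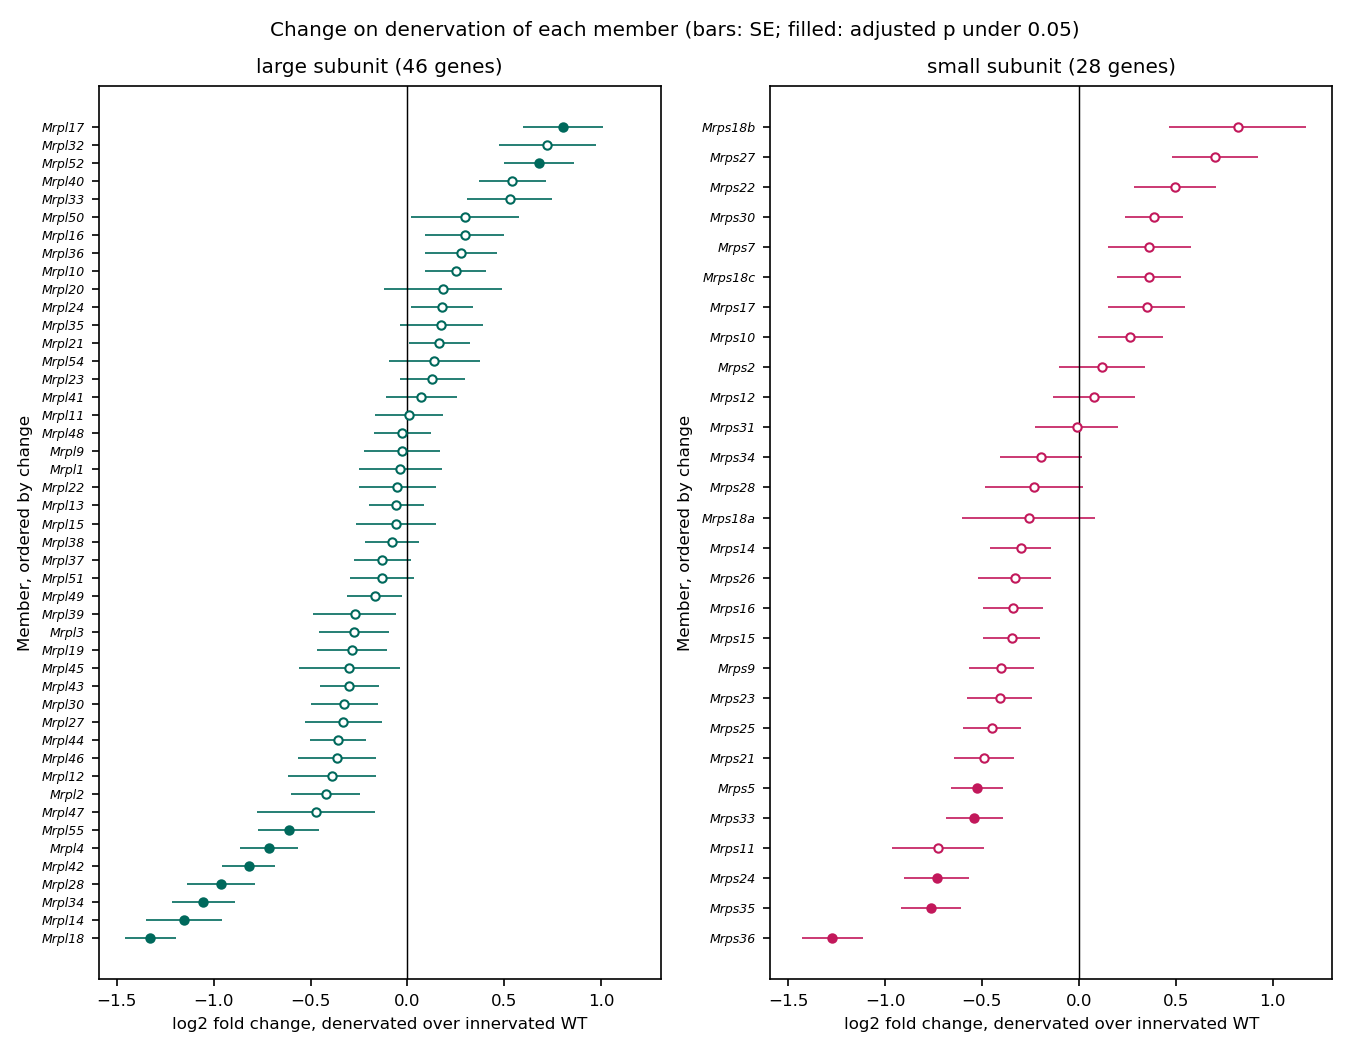
Log2 fold change of denervated over innervated WT (horizontal axis) for each of the 46 large and 28 small subunit genes, ordered by change, with bars for the standard error and filled points for adjusted p under 0.05. Changes run from −1.33 for Mrpl18 to 0.82 for Mrps18b, and the 14 filled points are 12 lower and 2 higher.

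By symbol, 2 of 46 large subunit genes rose and 7 fell (19.6%), with a median log2 change of −0.070. Of 28 small subunit genes 0 rose and 5 fell (17.9%), with a median of −0.28. The known structure places Mrps18a and Mrps30 in the large subunit, and Mrps36 is left out. Assigned in this way, 2 of 48 large subunit genes rose and 7 fell (18.8%, median −0.070). Of 25 small subunit genes 0 rose and 4 fell (16.0%, median −0.30). All these shares lay below the 28.7% of all genes tested. With library totals in place of TMM scaling the medians by symbol were 0.19 and −0.015, while the median of all genes moved from 0.0022 to 0.27. There 13 members were called higher and 7 lower beside 36.5% of all genes. The signs of the members' medians therefore rest on the scaling, and the difference between the subunits was not tested. Over the 17 alternative settings Mrpl14, Mrpl34, Mrpl28, Mrpl42, Mrps36 and Mrps35 were each called in 15, Mrps24 in 14, Mrpl52 in 12, Mrpl17 in 10, and Mrps33 and Mrps5 in 9, the last 3 in 1 of the 6 fits that leave out a library. Mrpl4 and Mrpl55 were not counted in this way. FPKM separated the 2 groups in 13 members that were higher and 37 that were lower, beside 32.7% and 38.5% of all genes tested. Without innervated WT replicate 1 or replicate 2, 0 members were called higher and 1 lower, beside 3.87% and 1.68% of all genes. Without denervated WT replicate 1 the counts were 9 and 14 (43.9% of all genes), without replicate 2 they were 1 and 14 (23.2%), and without DKO-labelled replicate 1 or 2 they were 1 and 9 (22.9% and 22.6%).

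Members with a counterpart in bacteria and members without one were described separately. Of 47 with a counterpart 1 rose and 8 fell, with a median log2 change of −0.059, and of 27 without one 1 rose and 4 fell, with a median of −0.17. The share called was 19.1% and 18.5%, both below the 28.7% of all genes. The 27, and the 4 falls among them, include Mrps36, whose protein later work placed outside the ribosome. Across the 74 members the innervated level and the log2 change had a Spearman correlation of −0.28, where both share the innervated libraries and the members are not independent replicates.

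Large and small subunit messages were also summed over the members in each library. The large subunit summed to 2602 and 2893 FPKM in innervated muscle, 2175 and 2545 after denervation in WT, and 2130 and 2552 in the DKO-labelled libraries. The small subunit summed to 1416 and 1596, 1166 and 1381, and 1154 and 1372 FPKM. The ratio of large to small was 1.837 and 1.813 in innervated muscle, 1.866 and 1.843 after denervation in WT, and 1.845 and 1.861 in the DKO-labelled libraries. Both innervated libraries thus lay below all 4 denervated ones, though the nearest values, 1.837 and 1.843, were closer to each other than the 2 libraries of any group. The mean was 1.825 ± 0.017 (SD, n = 2), 1.855 ± 0.0163 and 1.853 ± 0.0113, and with 2 libraries a group no test was made. The known structure assigns Mrps30 and Mrps18a to the large subunit and leaves out Mrps36. It gave ratios of 2.2 and 2.156 in innervated muscle, 2.181 and 2.16 in denervated WT, and 2.144 and 2.279 in the DKO-labelled libraries. With that assignment the innervated values lay within the range of the denervated ones. The direction depended on the measure: without the most abundant gene of each subunit the ratio was 2.039 and 2.019 in innervated muscle and 1.86 to 1.925 in the denervated libraries, whereas the ratio of median FPKM was 1.104 and 1.079 in innervated muscle and 1.111 to 1.221 in the denervated libraries.

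**Figure D3:**
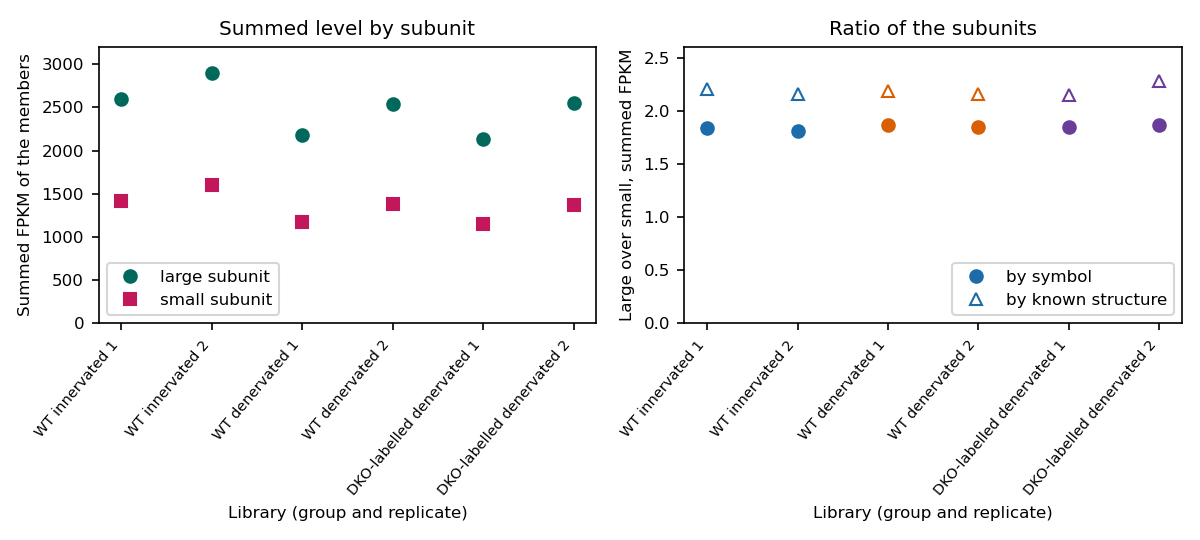
Summed FPKM of the large and small subunit genes in each library (left) and the ratio of the sums (right), by symbol (filled) and with subunits assigned by known structure (open). Sums range from 1154 to 2893 FPKM, while the ratio by symbol stays between 1.81 and 1.87.

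The scale of the level mattered for these sums. All 74 members together had 4018 and 4488 FPKM in innervated muscle, 3341 and 3927 after denervation in WT, and 3284 and 3924 in the DKO-labelled libraries, so the denervated libraries were lower. As a share of each library's fragments, which uses neither transcript length nor the authors' library factor, they had 0.409% and 0.420% in innervated muscle, 0.411% and 0.492% after denervation in WT, and 0.430% and 0.504% in the DKO-labelled libraries, so on that scale the denervated libraries were level or higher. Muscle markers were also lower after denervation in the same libraries, from a summed 19250 and 23080 FPKM to 7574 and 6611, and 5 of 7 tested were called lower. Fat markers went from 274 and 205 to 41.6 and 46.5 FPKM (4 of 4 called lower), endothelial markers from 93.4 and 106 to 48.9 and 40.0 (5 of 6), and Schwann cell markers from 55.2 and 56.3 to 23.1 and 22.9 (4 of 6). Fibroblast markers had 729 and 532 FPKM, then 436 and 296 (1 of 6 called lower). Macrophage and leukocyte markers had 212 and 120, then 237 and 192 FPKM (1 of 8 called higher), and satellite cell markers 14.8 and 16.3, then 20.7 and 16.6 (of 5 tested, 1 higher and 1 lower). These counts are to be read beside the 14.3% of all genes tested that were called lower and the 14.4% called higher. The fibroblast and the macrophage and leukocyte counts lie near those shares. The part of these cell types in the members' changes was not tested, and in whole muscle fewer cells of a type and less RNA per cell cannot be told apart.

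Promoters were available for 65 of the 74 members, as 71 windows from 250 bases before to 50 bases after the start of a RefSeq gene (GRCm38.p6). They are shown to compare genes that moved in opposite directions, at the place where factors for mitochondrial genes are known to bind. All carry symbols of 1 complex, though the protein of Mrps36 was later placed outside it. The windows were searched on both strands for the letters CCGGAAG (the core bound by ETS family factors such as GABP, also called NRF2), GCATGCGC (NRF1), AAGATGGCG (YY1), GGGCGG (the GC box) and TATAAA (the TATA box), and overlapping matches were allowed. The 100 bases before the start of the genes with the largest changes follow, with any match in capitals: first 5 genes that fell, then the 2 that rose.

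Mrpl18 (chr17:12916092-12916191, minus strand): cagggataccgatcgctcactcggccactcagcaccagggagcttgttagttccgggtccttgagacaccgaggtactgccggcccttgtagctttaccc
Mrps36 (chr13:100744660-100744759, minus strand): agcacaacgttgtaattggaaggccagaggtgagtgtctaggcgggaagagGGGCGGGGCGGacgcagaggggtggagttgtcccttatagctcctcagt
Mrpl14 (chr17:45686249-45686348, plus strand): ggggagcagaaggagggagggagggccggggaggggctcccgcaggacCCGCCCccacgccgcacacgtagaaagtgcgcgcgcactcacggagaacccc
Mrpl34 (chr8:71464826-71464925, plus strand): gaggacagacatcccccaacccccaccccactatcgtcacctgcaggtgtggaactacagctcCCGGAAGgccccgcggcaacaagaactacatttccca
Mrpl28 (chr17:26123403-26123502, plus strand): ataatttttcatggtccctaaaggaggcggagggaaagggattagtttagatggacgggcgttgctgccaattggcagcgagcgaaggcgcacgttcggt
Mrpl17 (chr7:105811088-105811187, minus strand): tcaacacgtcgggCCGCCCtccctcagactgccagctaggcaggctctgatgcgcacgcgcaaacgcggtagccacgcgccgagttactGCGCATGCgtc
Mrpl52 (chr14:54426809-54426908, plus strand): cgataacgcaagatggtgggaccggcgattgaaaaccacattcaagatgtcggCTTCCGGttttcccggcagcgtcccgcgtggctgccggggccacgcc

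In these stretches Mrps36 and Mrpl14 held a GC box, Mrpl34 and Mrpl52 the ETS core, and Mrpl17 a GC box and the NRF1 core, on one strand or the other. Mrpl18 held the ETS core and a GC box elsewhere in its window, Mrpl17 also held the ETS core elsewhere in its window, and Mrpl28 held none of the 5 motifs in its window. All 3 Mrps18 copies held the ETS core, shown here in capitals with the bases around it, to compare copies whose values differed. Relative to the start, the stretch runs from −37 to −9 in Mrps18a and from −167 to −139 in Mrps18c. In Mrps18b it lies after the start, from 33 to 50, where the window ends.

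Mrps18a (chr17:46110967-46110995, plus strand): acacccctgctCCGGAAGcggaagtgcac
Mrps18b (chr17:35916391-35916408, minus strand): gcgcagtcgctCTTCCGG
Mrps18c (chr5:100798592-100798620, plus strand): gggtcacgtgaCTTCCGGcccgggaagcg

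Over the 71 member promoters, 32.4% held the ETS core, beside 8.86% of all 32851 promoters and 16.59% of the 10855 promoters of genes tested. The NRF1 core was in 11.3% beside 2.71% and 5.12%, and the YY1 core in 11.3% beside 1.4% and 2.87%. The GC box was in 52.1% beside 35.66% and 62.41%, and the TATA box in 7.0% beside 13.62% and 7.54%. The 23 members with the ETS core, 12 large and 11 small, had a median log2 change of −0.13 with denervation and 5 calls, and the 42 without it −0.15 and 7 calls. The 8 members with the NRF1 core were Mrpl9, Mrpl10, Mrpl17, Mrpl22, Mrpl32, Mrpl33, Mrpl39 and Mrps18b, with a median of 0.39 and 1 call, Mrpl17, and the 57 without it had −0.27 and 11 calls. The 8 with the YY1 core had −0.19 and 2 calls, and the 57 without it −0.13 and 10 calls. The 32 with a GC box had −0.30 and 9 calls, and the 33 without one −0.011 and 3 calls. The 5 with the TATA box had −0.026 and 1 call, and the 60 without it −0.15 and 11 calls. All these calls are to be read beside the 28.7% of all genes tested that were called with denervation in WT. The 9 calls among 32 members with a GC box lie near that share. These matches are descriptions of letters in the windows, and no test was made on them.

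The second comparison set DKO-labelled against WT muscle, both denervated. No member was called, 0 of 74, beside 0.0408% of all genes tested (5 of 12247), and the lowest adjusted p among members was 0.926 by edgeR. At an unadjusted p under 0.05 there were also 0 members, beside 6.11% of all genes, and DESeq2 and limma called 0 members as well, beside 1.48% and 0.269% of all genes. Log2 differences ran from −0.39 for Mrpl47 to 0.35 for Mrps11, with a median of 0.0065 over all members, −0.0035 in the large and 0.012 in the small subunit, beside −0.020 over all genes. FPKM of the 2 groups did not overlap in 8 members that were higher and 8 that were lower, beside 14.7% and 15.1% of all genes. No gene of the marker lists was called in this comparison either, and the muscle markers summed to 6721 and 6816 FPKM in the DKO-labelled libraries.

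The intervals show which differences these libraries could have hidden. The 95% interval of the log2 difference reached a median of 0.43 to either side and lay within −1 and 1, a 2-fold difference either way, for 72 of 74 members. It ran beyond that range for Mrpl47 and Mrps18a. A p above the threshold does not show that the genotypes were alike.

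**Figure D4:**
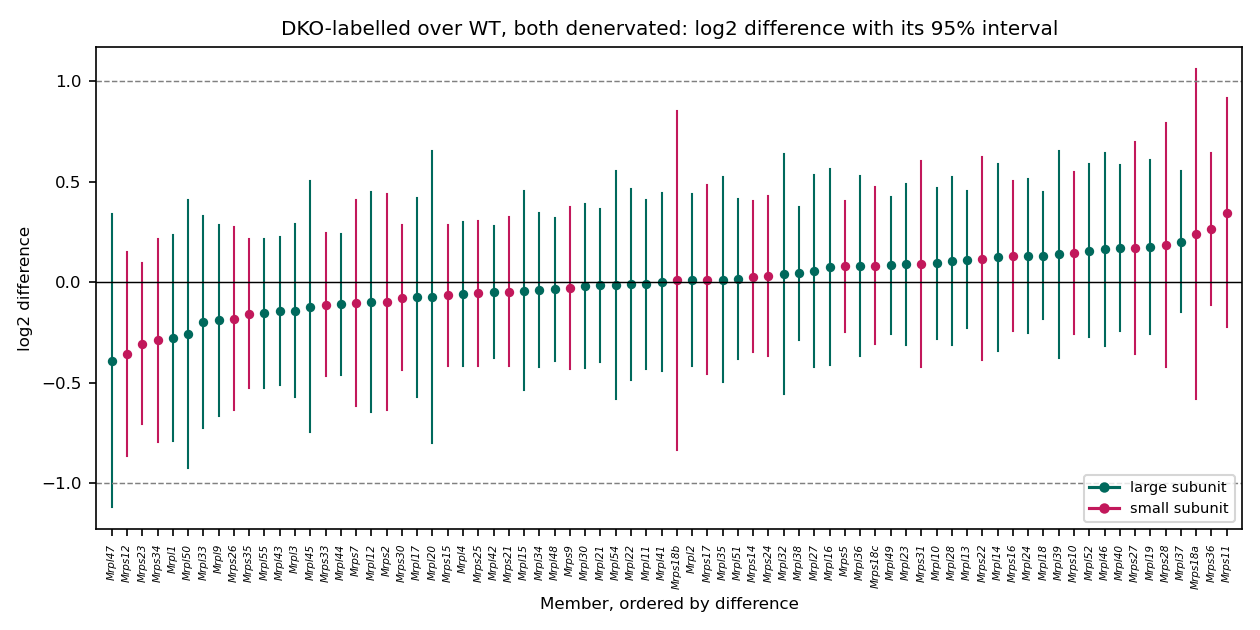
Log2 difference of DKO-labelled over WT muscle, both denervated, for each member in order of its difference, with its 95% interval as a vertical line and dashed lines at a 2-fold difference. Every interval crosses 0, and those of Mrpl47 and Mrps18a pass a dashed line.

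The members nearest to a difference varied between libraries of 1 group. Mrpl47 had 10.7 and 19.9 FPKM in denervated WT and 11.3 and 12.9 in the DKO-labelled libraries, so the DKO-labelled pair lay inside the WT range, and its log2 difference of −0.39 became 0.13 without WT replicate 2. Mrps12 had 49.3 and 59.8, then 39.2 and 43.2 FPKM (log2 −0.36, edgeR adjusted p = 0.959), and Mrps23 had 58.5 and 75.2, then 53.5 and 54.6 (log2 −0.31, edgeR adjusted p = 0.926). In both of these the DKO-labelled libraries were lower without overlap.

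The remaining genes named by their p were of either sign. Mrps36 had 27.4 and 23.8 FPKM in denervated WT and 31.7 and 30.8 in the DKO-labelled libraries (log2 0.27, edgeR adjusted p = 0.958). Mrpl37 had 51.7 and 53.8, then 58.0 and 60.8 (log2 0.20), and Mrpl1, which forms the stalk where spent tRNA leaves, had 12.6 and 17.1, then 11.5 and 15.2 (log2 −0.28), each with an edgeR adjusted p of 0.968. Mrps18a spread widely within the DKO-labelled group, at 60.5 and 125 FPKM.

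Denervated DKO-labelled muscle was also set against innervated WT, a comparison that changes genotype and innervation together and shares the innervated libraries with the first one. Here 4 members were called higher and 15 lower, which is 25.7% beside 31.4% of all genes tested (15.2% higher, 16.2% lower), with a median log2 change of −0.11. The log2 changes in this comparison and in denervated WT stand side by side as −1.19 and −1.33 for Mrpl18, −1.09 and −1.05 for Mrpl34, −1.03 and −1.15 for Mrpl14, −1.01 and −1.27 for Mrps36, and −0.92 and −0.76 for Mrps35. For the genes called higher they were 0.87 and 0.70 for Mrps27, 0.84 and 0.68 for Mrpl52, 0.73 and 0.80 for Mrpl17, and 0.71 and 0.54 for Mrpl40. Mrps23, with 90.8 and 93.7 FPKM in innervated WT and 53.5 and 54.6 in the DKO-labelled libraries, was called here (log2 −0.71, edgeR adjusted p = 0.0222) and had −0.41 in denervated WT.

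In that comparison too the counts moved with single libraries. Without innervated WT replicate 1, 0 members were called higher and 2 lower (7.23% of all genes), and without replicate 2, 0 and 1 (5.28%). Without DKO-labelled replicate 1 the counts were 2 and 4 (17.1%), and without replicate 2 they were 0 and 4 (9.76%). Without denervated WT replicate 1 they were 8 and 21, and without replicate 2, 8 and 20 (45.1% of all genes each). With library totals only, 17 were called higher and 7 lower beside 40.6% of all genes, while the median of all genes was 0.33.

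The other genes of mitochondrial translation were taken from lists of what surrounds the ribosome, and their shares called are to be read beside the 28.7% of all genes tested. Of 9 ribosome-linked genes under other symbols, 2 fell with denervation in WT (22.2%): Dap3, a GTP-binding protein of the small subunit, had 14.1 and 15.0 FPKM in innervated and 9.36 and 9.63 in denervated muscle (log2 −0.56), and Oxa1l, the inner membrane insertase that the ribosome docks to, had 30.6 and 32.7, then 21.9 and 20.6 (log2 −0.50). Of 11 translation factors 3 fell and 0 rose (27.3%), with a median of −0.33. Tufm, the elongation factor that delivers charged tRNA, had 60.9 and 67.0, then 37.7 and 31.5 FPKM (log2 −0.80, edgeR adjusted p = 0.0145), and the initiation factors Mtif3 and Mtif2 had log2 changes of −0.71 and −0.64.

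Of 19 aminoacyl-tRNA synthetases, which charge tRNA, 3 rose and 2 fell (26.3%, near the share of all genes). Gars, which serves both cytosol and mitochondria, rose from 23.7 and 27.0 to 58.7 and 64.5 FPKM (log2 1.33, edgeR adjusted p = 0.00415), and Kars, also shared, from 53.7 and 46.9 to 93.3 and 94.7 (log2 0.97). Ears2, a mitochondrial enzyme, rose with a log2 change of 1.01. Sars2 and Fars2, both mitochondrial, fell with −0.97 and −0.83. Of 21 genes of ribosome assembly and ribosomal RNA modification, Mterfd2 rose (log2 0.69), and the RNA methyltransferases Mrm1 (−1.29) and Ftsj2 (−1.21) and the GTPase Mtg1 (−0.64) fell, 19.0% in all.

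Among genes that maintain and read mitochondrial DNA, 1 of 15 rose, Elac2, which trims the ends of tRNA (log2 0.88), and 0 fell (6.67%). Among 9 regulators of mitochondrial gene expression, Ppargc1a fell from 15.5 and 7.91 FPKM to 4.15 and 1.88 (log2 −1.95, edgeR adjusted p = 0.0336), Esrra from 74.3 and 81.7 to 28.5 and 25.4 (log2 −1.43, edgeR adjusted p = 0.00424) and Ppargc1b with a log2 change of −1.31. Myc rose, from 1.16 and 1.19 to 5.86 and 15.2 FPKM (log2 3.24, edgeR adjusted p = 0.00634), which made 44.4% called. Of 26 genes of protein import and folding, Tomm70a, an import receptor, rose (log2 1.12) and Dnajc19, an import motor component, fell (log2 −0.67), 7.69% of the list. Tomm70a had 20.9 and 19.3 FPKM, then 29.5 and 58.2. Some calls in these pathway lists moved with the 11 alternative settings other than leaving out a library. Mterfd2 was called in 6 of them, Tomm70a in 7, and Dap3, Oxa1l, Ears2, Mtg1 and Dnajc19 in 8.

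**Figure D5:**
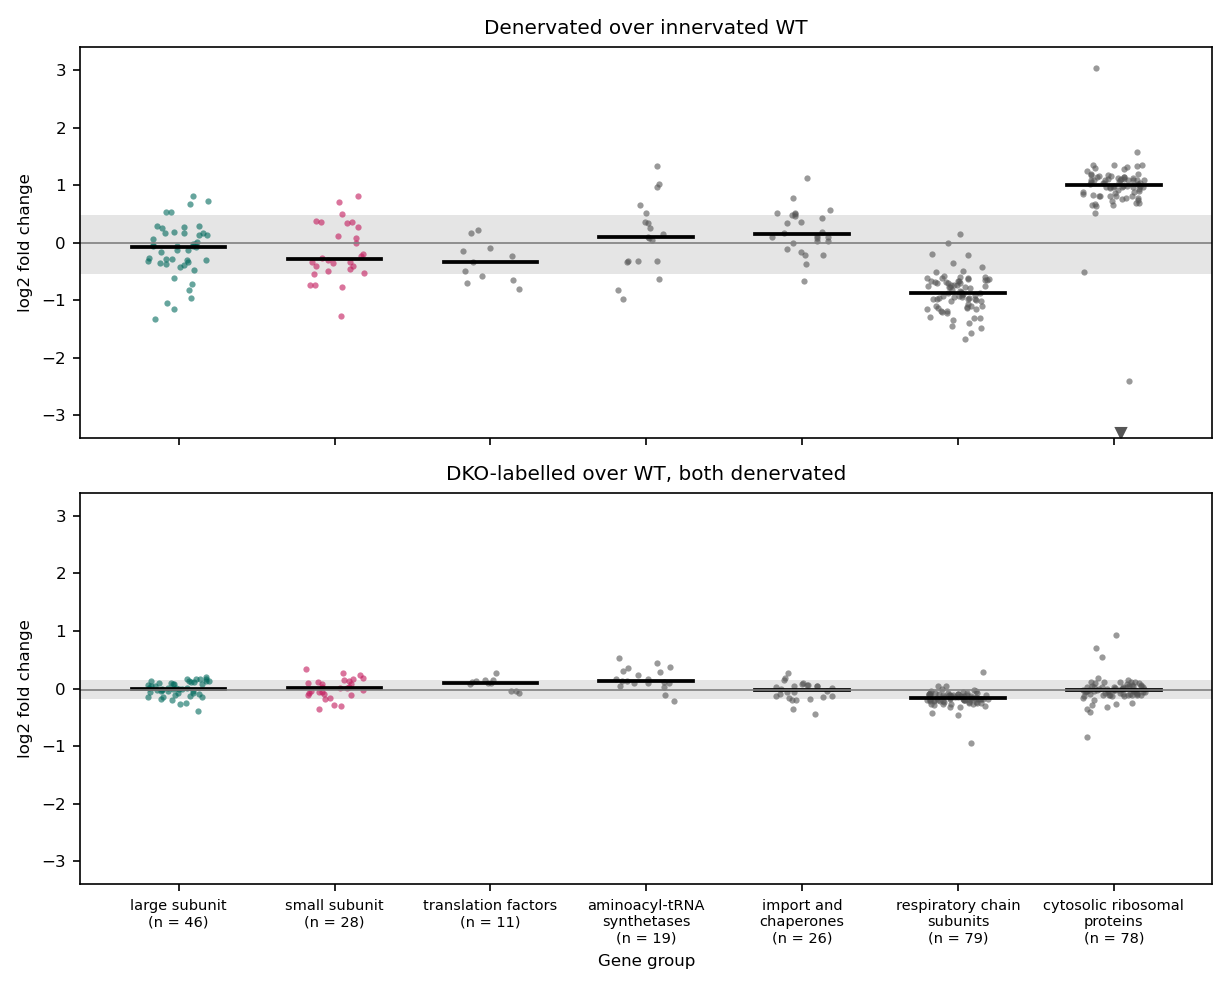
Log2 fold change of each tested gene (points) in 7 gene groups with the group median (bar), for denervated over innervated WT (top) and DKO-labelled over WT, both denervated (bottom). The grey line and band are the median and interquartile range of all genes tested, and a triangle at the lower edge marks Rpl35, whose log2 change of −6.48 lies below the axis. In the top panel the members of both subunits spread around the grey line. Respiratory chain subunits, with nuclear-encoded subunits of ATP synthase among them, have a median of −0.87 and cytosolic ribosomal proteins one of 1.01.

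Nuclear-encoded subunits of the respiratory chain and ATP synthase, together called respiratory chain subunits here, and the cytosolic ribosome stand beside the members. The listed subunits are not products of the mitochondrial ribosomes. Of 79 tested respiratory chain subunits 67 fell and 0 rose in denervated WT, with a median log2 change of −0.87, led by Sdhc (−1.67) and Ndufb10 (−1.56). Of 78 tested cytosolic ribosomal proteins 72 rose and 2 fell, with a median of 1.01, Rpl3 highest at 3.03 and Rpl12 next at 1.57. The 2 that fell, named after their values were seen, were Rpl35 and Rpl3l, the form of Rpl3 made in striated muscle. The differences between these groups and the mitochondrial ribosome were not tested. In DKO-labelled against WT muscle, both denervated, each of these 2 groups had 0 calls too. The respiratory chain subunits still had a median log2 difference of −0.16, with 76 of 79 negative, beside −0.020 over all genes. Their FPKM did not overlap in 45 that were lower and 0 that were higher, beside 15.1% and 14.7% of all genes. The cytosolic ribosomal proteins had a median of −0.030. Neither shift was tested for the group as a whole.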

How the data were processed

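Each library came as 1 table made by the authors. The build is mm9, and Cuffdiff 2.0.2, TopHat2 2.0.3, Bowtie2 2.0.0.7, CASAVA 1.8.2 and Trim Galore 0.2.1 were used, per the submitters' processing notes. What each tool did, which annotation was used and whether strand was counted is not given in the sources used here. The deposited columns hold, per the file headers, FPKM, a signal of externally scaled fragments (raw fragments times 1 factor per library, 0.6643 to 1.5641, not used further), and raw fragments, estimated counts of which 85.0% to 85.6% of nonzero entries were whole. FPKM carries that library factor, so FPKM and shares of fragments can order libraries differently. How fragments of gene copies or overlapping genes were split is not stated. Each table lists every entry 3 times, and 21805 entries remained. Coordinates are those of the tables on mm9, where whether starts count from 0 is not stated; RefSeq promoters are on GRCm38.p6, and no coordinates were converted.

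Estimated counts were rounded and tested with edgeR 4.0.16 (R 4.3.3) by the quasi-likelihood test, with TMM scaling and all 6 libraries in 1 fit of group means (3 residual degrees of freedom, common coefficient of biological variation 0.222). P-values are two-sided. Alternatives used DESeq2 1.42.0 and limma 3.58.1 on log2(FPKM + 0.5), among others. The fit was also run on simulated data, with as many genes raised as lowered and the same spread for every gene. That simulation held no shift of scaling between groups, so it does not check how the results depend on scaling. Groups were taken from the sample titles, and replicates were numbered in accession order.

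Members, gene lists and motifs were chosen with earlier results of these data known. Members named are, per subunit, the 5 called of largest change in each direction (filled up to 3 by smallest p), up to 3 in each other comparison, the 3 highest and 3 lowest by mean FPKM, and Mrps18a to c, Mrps30, Mrps36, Mrpl11, Mrpl12 and Mrps12; of the pathway lists, up to 4 called genes per direction. Cox4nb, Atp5s and Atp5sl matched the respiratory chain pattern and were removed by hand.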

Additional observations from a re-analysis of the deposited data

How the results depend on the processing

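In denervated against innervated WT, members called higher were 2 in the fit reported and 13 with library totals only, 5 by DESeq2 (36.9% of all genes called in either direction), 4 with no filter on FPKM (22.7%), 1 by limma on log2(FPKM + 0.5) (28.5%), 0 by limma with a pseudocount of 0.1 (26.2%), 1 with only the 2 groups compared (22.7%), and 0 to 9 leaving out 1 library in turn. Members called lower were 12, and 7 with library totals only and 1 to 14 leaving out 1 library. The median log2 change of the large subunit was 0.19 with library totals only and −0.23 to 0.015 leaving out 1 library. That of the small subunit was −0.015 with library totals only, −0.22 with no filter, −0.34 with a mean FPKM of at least 2 or after quantile normalization, and −0.37 to −0.13 leaving out 1 library. Single genes without a call changed sign: Mrpl1 to 0.22 with library totals only and 0.028 with no filter, Mrpl37 to 0.14 and Mrps18a to 0.0065 with library totals only, and Mrpl11 to −0.046 with a mean FPKM of at least 2, −0.049, −0.050 and −0.048 by limma with pseudocounts of 0.5, 0.1 and 1, and −0.040 after quantile normalization. Leaving out 1 library gave −0.29 to 0.17 for Mrpl1, −0.14 to 0.16 for Mrpl11, −0.094 to 0.40 for Mrpl35, −0.14 to 0.32 for Mrps12 and −0.15 to 0.34 for Mrps2.

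Between the denervated genotypes 0 members were called in every setting that kept 2 libraries in each group. Over all genes, 0 of 12005 were called with only the 2 groups compared and 3 of 12247 with library totals only. The most were called by DESeq2, 181 of 12247 (1.48%). With so few calls over all genes, a count of 0 does not set the members apart from other genes. The median of the large subunit was −0.018 with RLE factors and by DESeq2, 0.056 with library totals only, 0.010 with a mean FPKM of at least 2, 0.044 after quantile normalization and −0.12 to 0.12 leaving out 1 library; that of the small subunit was −0.0061 with RLE factors, −0.0063 by DESeq2, and 0.075, 0.030, 0.065 and −0.11 to 0.12 in the order of the others. Mrpl47 ran from −0.77 to 0.13 leaving out 1 library.

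In denervated DKO-labelled against innervated WT, members called higher were 4, and 17 with library totals only, 1 by limma with a pseudocount of 0.1 (30.0% of all genes), 7 after quantile normalization (36.1%), 8 with only the 2 groups compared (45.0%) and 0 to 8 leaving out 1 library. Members called lower were 15, and 7 with library totals only and 1 to 21 leaving out 1 library. The large subunit median was 0.23 with library totals only, −0.031 with no filter, −0.14 with a mean FPKM of at least 2, −0.12 by limma with a pseudocount of 0.1 and −0.15 to −0.030 leaving out 1 library. The small subunit median was 0.050 with library totals only, −0.22 with no filter, −0.34, −0.35 and −0.34 by limma with pseudocounts of 0.5, 0.1 and 1, and −0.41 to −0.18 leaving out 1 library.

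The ratio of large to small subunit in innervated WT, denervated WT and DKO-labelled muscle was 2.18, 2.17 and 2.21 with subunits assigned by structure, 1.09, 1.22 and 1.13 from median FPKM, 1.93, 1.90 and 1.90 from fragments, and 2.03, 1.88 and 1.90 without the most abundant member of each subunit. Leaving out 1 library returns the ratio of the other library of its group, 1.81 to 1.84, 1.84 to 1.87 and 1.84 to 1.86. It is therefore no separate check of stability. The cause of these shifts was not tested.

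The labels number no replicates. Runs of consecutive sample numbers used as a replicate block gave 5 members called higher and 14 lower in denervated against innervated WT, beside 36.4% of all genes, and a small subunit median of 0.022 between the denervated genotypes. Deviations of libraries with the same run correlated at 0.19, 0.11 and 0.40 across 12247 genes in the 3 pairs of groups, and with 2 runs this does not establish pairing. Leaving out a library leaves 1 in its group, which is assumed to vary like the others. With 2 libraries a group, a log2 difference under 0.43 lies inside the median 95% interval.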

Other observations

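Mitochondrial ribosomal proteins also stood in 2 entries that the tables list under joined symbols and that the choice by name left out. The entry joining Mrps6 with Slc5a3 had 23.8 and 24.1 FPKM in innervated muscle, 27.9 and 28.7 after denervation in WT, and 29.4 and 30.8 in the DKO-labelled libraries, and 919 and 659, 1513 and 980, and 1229 and 1091 fragments. The test on fragments gave log2 changes of −0.023 for denervation in WT and 0.13 between the denervated genotypes (edgeR adjusted p = 0.916 and 0.973), while FPKM was higher in both denervated WT libraries, so the sign of the first depends on the unit and no direction is given. The entry joining Ccdc142 with Mrpl53 had 106 and 126, 85.9 and 88.2, and 75.9 and 102 FPKM, with −0.38 and 0.062 (edgeR adjusted p = 0.162 and 0.995). In neither entry can the fragments of the 2 genes be told apart.

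The 5 genes outside the members whose log2(FPKM + 0.5) over the 6 libraries was most like the mean of the members were Dido1 (Pearson r 0.996), Ybx1 (0.990), an entry joining 3 Tmsb15 genes (0.986), Ndufa7 (0.985) and Dtnbp1 (0.984). Dido1 had 7.30 and 8.04 FPKM in innervated muscle, 6.21 and 7.15 after denervation in WT, and 6.22 and 7.24 in the DKO-labelled libraries. Over the same 6 libraries a member's own correlation with the mean of the other members had a median of 0.69, was highest for Mrps14 (0.959) and Mrpl48 (0.958), and was negative for 15 members, lowest for Mrpl40 (−0.67). These are descriptions over 6 libraries that share groups, depth and scaling.

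The members lay on 17 chromosomes, most on chromosome 11 (10 genes) and chromosome 17 (8 genes). In denervated against innervated WT the median log2 change of the members was −0.27 between the first libraries of each group and −0.083 between the second.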
